A study of Mus musculus with 20 samples.

Results

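The YAP/TAZ genes described here were 10 members of the Hippo pathway among 51826 mouse genes counted in 20 libraries. The 10 genes were chosen by their role in the pathway and not by a measured value, but with earlier results of these data known. These genes were the coactivators Yap1 and Wwtr1 (which encodes TAZ), the DNA-binding partners Tead1, Tead2, Tead3 and Tead4, the kinases Lats1 and Lats2, and the target genes Ankrd1 and Amotl2. All 10 were found in the table, and all 10 were among the 20407 genes that had at least 5 counts in at least 5 libraries and were tested. The libraries came from primary renal myofibroblasts of C57BL/6J mice, either WT or WWP2-/- throughout the body (labelled KO), left untreated or treated with TGFβ1, with 5 libraries in each of the 4 groups. The cells grew out of minced kidney pieces of WWP2-/- mice and WT littermates and were used at an early passage, so that other kidney cells could be carried along. WWP2 is an E3 ubiquitin ligase that marks other proteins for removal or relocation, whose full-length and N isoforms are described as deleted in the knockout, and the question was how its loss changes myofibroblasts with and without this profibrotic cytokine. The labels gave neither the dose nor the duration of TGFβ1, which the study states, nor which mouse each library came from. The study describes its data points as independent experiments on individual mice or their cells, and libraries of 1 group differed in sex-linked transcripts, so their spread is more than technical.

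The Hippo pathway passes signals from cell shape, matrix stiffness and cell contact to the nucleus. When LATS kinases are active, they phosphorylate YAP and TAZ, which then stay in the cytoplasm or are degraded. When they are not, YAP and TAZ enter the nucleus, bind TEAD factors and switch on genes such as Ankrd1, Ccn1, Ccn2, Amotl2 and Lats2. In kidney fibroblasts this pathway is known for its part in activation on stiff matrix and for its crosstalk with TGFβ1 signalling. AMOTL2 and LATS2 in turn hold YAP back, which makes their genes both targets and brakes. Because the pathway acts through protein location and phosphorylation, transcript levels show its parts and its output but not the activity of its kinases.

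The TEAD element GGAATG was searched for in the promoter windows of RefSeq (GRCm38.p6), each running from 250 bases before to 50 bases after a start site. Windows were listed for 8 of the 10 genes, without Tead1 and Tead4. At least 1 match, as GGAATG or as its complement CATTCC, was found for 6 of these 8 (Yap1, Wwtr1, Tead3, Lats2, Ankrd1 and Amotl2) and none for Tead2 and Lats1. Over all genes in the table, 16.6% had a match, and over all 32817 windows 14.7% did. The windows of Ankrd1 (chr19:36119795-36120094, minus strand), Amotl2 (chr9:102717554-102717853, plus strand) and Tead3 (1 of 3 windows, chr17:28350551-28350850, minus strand) are shown, since Ankrd1 and Amotl2 are the targets and Tead3 alone passed the test between genotypes. Capitals mark the matches, and positions count from 1 at the start site, with negative numbers before it.
Ankrd1: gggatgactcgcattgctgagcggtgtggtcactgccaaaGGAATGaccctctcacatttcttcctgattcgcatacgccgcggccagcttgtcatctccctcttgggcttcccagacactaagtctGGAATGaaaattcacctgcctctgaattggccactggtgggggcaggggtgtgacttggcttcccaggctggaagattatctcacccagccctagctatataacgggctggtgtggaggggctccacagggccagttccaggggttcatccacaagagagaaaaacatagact
Amotl2: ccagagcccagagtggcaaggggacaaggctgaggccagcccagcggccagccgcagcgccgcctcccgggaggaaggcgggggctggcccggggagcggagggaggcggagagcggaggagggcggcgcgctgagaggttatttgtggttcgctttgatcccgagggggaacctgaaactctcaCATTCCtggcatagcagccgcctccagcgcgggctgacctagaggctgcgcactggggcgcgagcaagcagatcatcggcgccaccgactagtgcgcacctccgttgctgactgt
Tead3: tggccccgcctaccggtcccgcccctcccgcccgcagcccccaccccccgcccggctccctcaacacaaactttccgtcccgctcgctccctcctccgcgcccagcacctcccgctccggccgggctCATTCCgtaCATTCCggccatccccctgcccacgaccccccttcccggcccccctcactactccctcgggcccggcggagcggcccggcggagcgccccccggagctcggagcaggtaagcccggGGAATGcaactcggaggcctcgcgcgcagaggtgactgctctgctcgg
In Ankrd1 the matches began at −210 and −123, in Amotl2 at −65, and in this window of Tead3 at −123, −114 and 3. Of the other Tead3 windows, chr17:28350297-28350596 held 0 matches and chr17:28350756-28351055 held 1, so the one shown held the most. Only 1.36% of all windows held 2 or more matches. A match is a stretch of letters, and binding by TEAD factors was not measured.

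The libraries held between 47520759 and 73063697 counts (median 55863325.5), so that a count of 0 would allow at most 0.0631 counts of a gene per 1000000 counts (CPM), which covers counting error only. Library sizes were scaled by edgeR's TMM method, and differences as log2 fold changes from edgeR's quasi-likelihood test, with p-values adjusted by Benjamini-Hochberg over all genes tested. Wwp2 was at 50.8 to 58.4 CPM in WT and 17.03 to 21.1 CPM in WWP2-/- libraries with TGFβ1, a log2 fold change of −1.49 (edgeR adjusted p = 1.06e-08). Untreated, it was at 49.99 to 59.9 and 18.5 to 22.7 CPM, so that the labelled genotypes were told apart, with transcript left in every WWP2-/- library.

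The libraries differed in sex-linked transcripts, and the labels gave no sex. Xist, a transcript of the inactive X chromosome, was above 1 CPM without Y-linked transcripts in 6 libraries, Y-linked transcripts without Xist in 9, and both in 5. With TGFβ1, these were 3, 1 and 1 of the WT libraries (Xist alone, Y-linked alone, both) and 1, 4 and 0 of the WWP2-/- libraries. Untreated, they were 1, 1 and 3 of the WT and 1, 3 and 1 of the WWP2-/- libraries. These kinds of library and the genotypes were therefore unevenly spread. In addition, the 2 WWP2-/- libraries with Xist alone, untreated replicate 3 and TGFβ1 replicate 1, held 38.9 and 50.5 CPM of Acta2, the gene of smooth muscle actin and the defining transcript of myofibroblasts, against at least 1016 CPM in each of the other 18.

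Cell type markers were summed per library to check the labelled cell type. The 10 fibroblast markers summed to 6125 to 23030 CPM in untreated WT, 12790 to 37420 in TGFβ1-treated WT, 4622 to 13620 in untreated WWP2-/- and 5759 to 16890 CPM in TGFβ1-treated WWP2-/- libraries. The 8 macrophage markers summed to 151 to 3918, 60.5 to 426, 75.8 to 1744 and 72.2 to 3459 CPM in the same order, and the 8 markers of tubular epithelium to 33.4 to 421, 36.8 to 200.5, 16.2 to 709 and 15.6 to 548 CPM. Macrophage and tubular transcripts were thus present in every group. They also moved with the sex-linked transcripts, since macrophage markers summed to 60.5 to 311 CPM with Xist alone and 298 to 3918 CPM with Y-linked transcripts alone, and tubular markers to 15.6 to 66.00 and 97.03 to 709 CPM. Fibroblast markers summed to 4622 to 37420 CPM (median 24780) with Xist alone and 6125 to 16890 CPM (median 9399) with Y-linked transcripts alone. Of these 10 markers, 10 and 8 had a mean of at least 1 CPM in the same order. The 5 endothelial markers stayed between 6.08 and 156 CPM and the 5 mesothelial ones, with Lrrn4 below 1 CPM throughout, between 16.1 and 106 CPM. Of the 8 skeletal muscle markers, the defining factors Myod1, Myog, Myf5 and Pax7, as well as Chrna1, were below 1 CPM in every library, and the sum was 6.88 to 162 CPM. Macrophage, tubular and fibroblast markers also differed between genotypes, and the median of the macrophage markers had opposite signs with and without TGFβ1. With TGFβ1, 8 of 8 macrophage markers were above 0 in log2 fold change between WWP2-/- and WT libraries (median 2.52), with 0 called by edgeR, 8 at an unadjusted p below 0.05 and 8 called by DESeq2. Of the tubular markers 8 of 8 were above 0 (median 2.09), with 0 called by edgeR, 2 at an unadjusted p below 0.05 and 2 called by DESeq2. Of the 10 fibroblast markers 9 were below 0 (median −2.12), and 3 (Col1a1, Col1a2 and Postn) were called lower by edgeR and 5 by DESeq2. Over all genes in this comparison, edgeR called 6.07% and DESeq2 13.1%, and 5035 of 20407 were at an unadjusted p below 0.05 in edgeR. Untreated, 0 of 8 macrophage markers (median −0.835), 4 of 8 tubular (median −0.081) and 2 of 10 fibroblast markers (median −1.39) were above 0. EdgeR called 0 of each list untreated, beside 0.725% of all genes. DESeq2 called 0 macrophage, 0 tubular and 2 fibroblast markers, beside 743 of 20389 genes. In bulk RNA, fewer cells of a type and less RNA per cell cannot be told apart, and the part of these cells in the results below was not tested.

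Compared per length of exon, as CPM over kilobases (RPKM), the target genes stood highest and Tead4 lowest. Over the 20 libraries the mean was 151 ± 97.1 RPKM for Ankrd1 and 85.7 ± 21.6 RPKM for Amotl2 (SD, n = 20). Among the coactivators, Wwtr1 (58.8 ± 16.6 RPKM) stood above Yap1 (23.8 ± 3.09 RPKM). Of the kinases, Lats2 (22.3 ± 4.65 RPKM) stood above Lats1 (13.2 ± 3.06 RPKM). The TEAD factors followed in the order Tead1 (21.1 ± 6.404 RPKM), Tead2 (17.1 ± 1.67), Tead3 (8.51 ± 2.61) and Tead4 (1.24 ± 0.365). The ranges of Tead1 and Tead2 over the libraries overlapped, and those of Tead3 and Tead4 did not.

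**Figure D1:**
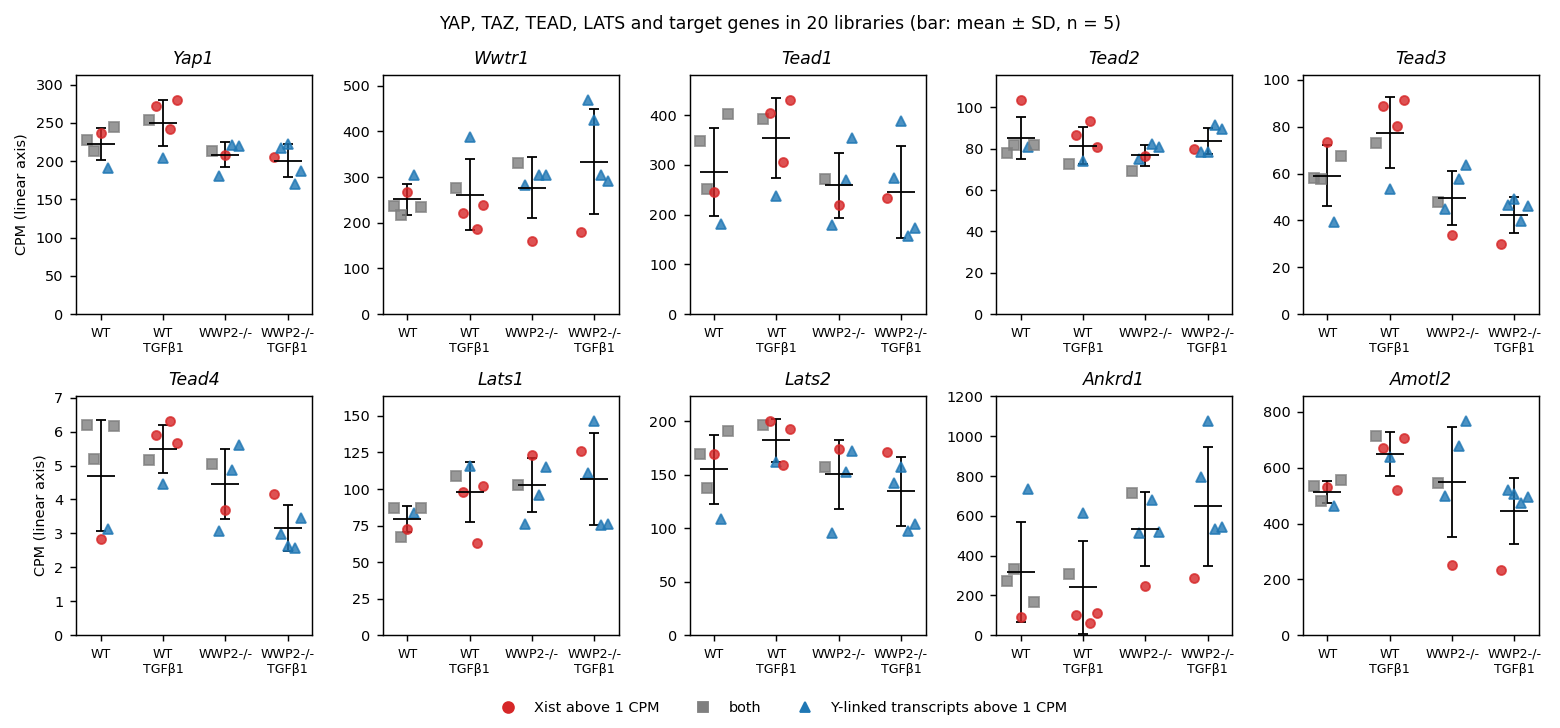
CPM (linear axes from 0) of the 10 genes in each of the 20 libraries, by group, with the mean and SD of 5 libraries as bars and with symbols for the sex-linked transcripts of each library. Tead3 and Tead4 lie lower in every WWP2-/- than in every WT library with TGFβ1, and Ankrd1 spans 60.2 to 1075 CPM with every Xist-only library below every Y-only one.

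The make-up of each family was described as its members' shares of the summed RPKM. Wwtr1 held the larger part of the coactivator transcripts, with 68.4% ± 4.15 of the sum of Yap1 and Wwtr1 in untreated WT, 65.9% ± 7.74 in TGFβ1-treated WT, 71.2% ± 6.36 in untreated WWP2-/- and 74.99% ± 7.05 in TGFβ1-treated WWP2-/- libraries (SD, n = 5 each). Its share ran from 59.8% to 68.5% in the 6 libraries with Xist alone and from 72.7% to 80.7% in the 9 with Y-linked transcripts alone, without overlap. Tead1 and Tead2 together made up most of the TEAD transcripts. With TGFβ1, Tead1 held 46.1% ± 4.898 in WT and 41.3% ± 9.55 in WWP2-/- libraries, and Tead2 30.7% ± 4.77 and 41.8% ± 8.102. The share of Tead3 was 18.9% to 21.4% in WT and 11.2% to 17.5% in WWP2-/- libraries with TGFβ1, without overlap, and Tead4 never reached more than 3.30% of the sum. Taken from counts without length, the Tead3 shares were 13.45% to 16.5% and 8.58% to 14.76%, which overlapped. Lats1 held 27.4% to 40.7% of the LATS sum in WT and 41.1% to 47.04% in WWP2-/- libraries with TGFβ1, ranges that lay next to each other without overlap. By sex-linked transcripts over all groups, Lats1 held 27.45% to 41.3% with Xist alone and 37.5% to 47.04% with Y-linked transcripts alone, which overlapped. These shares carry no test.

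**Figure D2:**
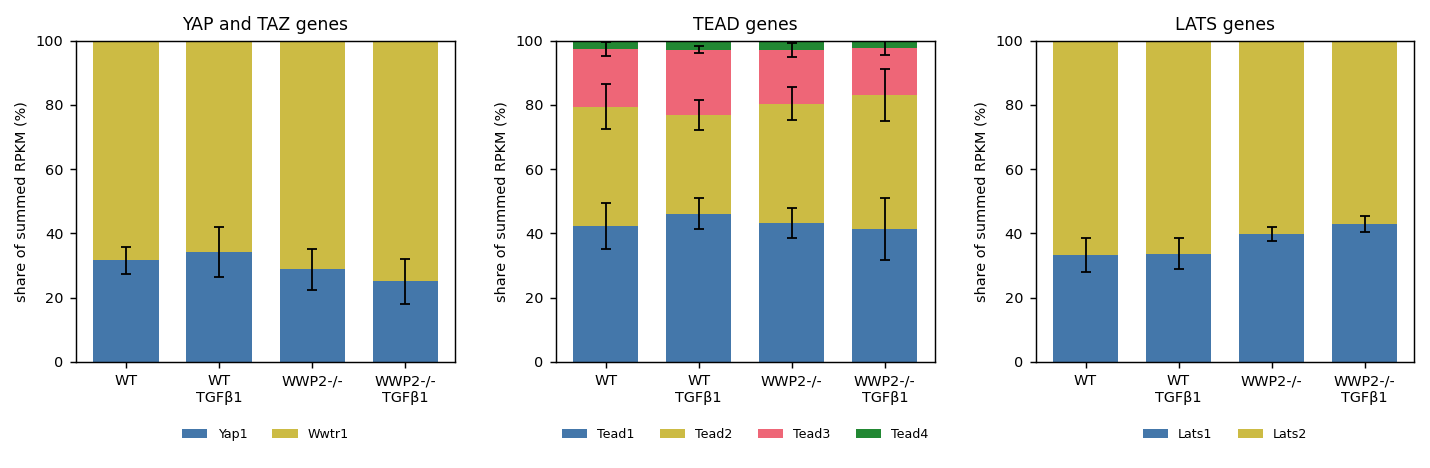
Mean share of each gene in the summed RPKM of its family (percent, axis from 0 to 100) in the 4 groups, stacked, with the SD of a segment's share over 5 libraries drawn at its top. Wwtr1 and Lats2 hold more than their partners in every group, and Tead4 is a thin band at the top.

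The genotypes were compared first with TGFβ1, where 1 of the 10 genes passed an adjusted p of 0.05 in edgeR, against 6.07% of all genes tested (1238 of 20407). That gene was Tead3, which was lower in WWP2-/- cells. The 10 genes had a median log2 fold change of −0.38, with 4 above and 6 below 0, beside a median of 0.05 over all genes tested. At an unadjusted p of 0.05 by edgeR, 6 of the 10 passed, beside 5035 of the 20407 genes tested. The ranges of the genotypes did not overlap for Tead3 and Tead4, that is for 2 of the 10 genes, against 5.67% of all genes tested (1157).

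**Figure D3:**
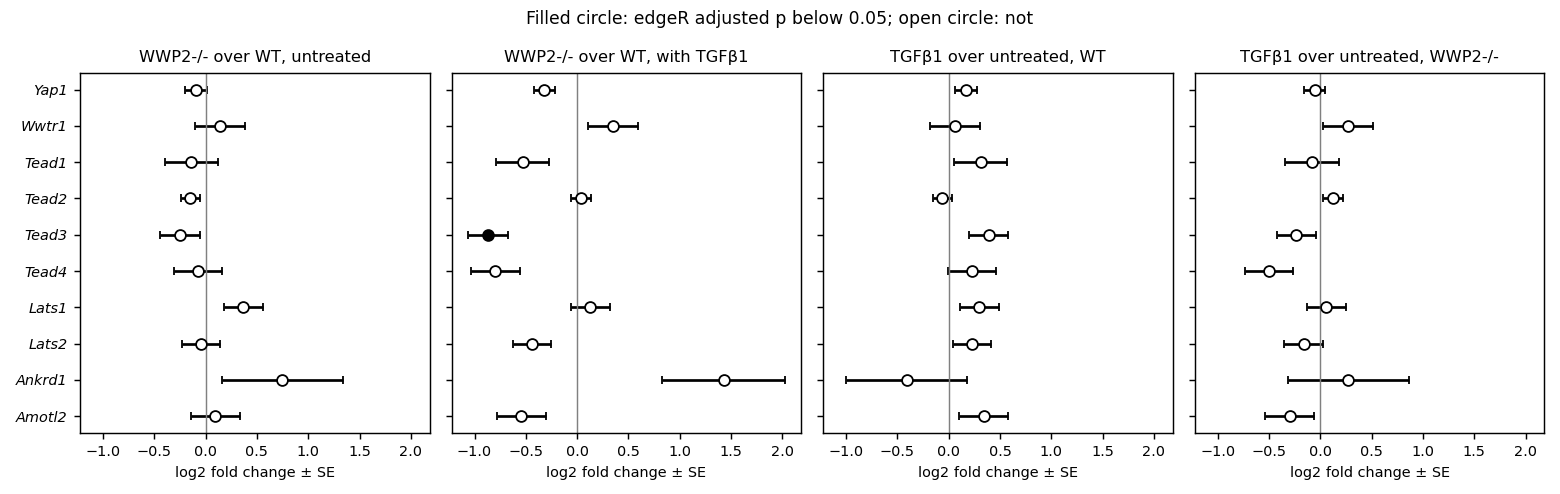
Log2 fold change with its standard error (edgeR) for the 10 genes in 4 comparisons, with filled circles for an adjusted p below 0.05. Tead3 at −0.87 between genotypes with TGFβ1 is the one filled circle, and Ankrd1 has the widest error bars in all 4 panels.

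TEAD factors carry the DNA-binding domain of the YAP/TAZ complex. Tead3 (ENSMUSG00000002249, chromosome 17, 28331671 to 28350817, minus strand) was at 73.2, 88.9, 53.6, 80.1 and 91.3 CPM in TGFβ1-treated WT replicates 1 to 5 and at 29.8, 46.7, 48.99, 39.8 and 46.1 CPM in the WWP2-/- ones. Untreated, it was at 57.97, 57.7, 73.3, 39.4 and 67.3 CPM in WT and 47.9, 45.00, 33.9, 57.8 and 63.8 CPM in WWP2-/- libraries. With TGFβ1 the highest WWP2-/- library, at 49.0 CPM, was below the lowest WT one, at 53.6 CPM, whereas the untreated ranges overlapped. Tead3 averaged 77.4 ± 15.1 CPM in treated WT cells and 42.3 ± 7.78 CPM without WWP2 (SD, n = 5 each), 1.83-fold higher in WT, a log2 fold change of −0.87 (SE 0.19, adjusted p = 0.0158) by edgeR. Untreated, it was −0.25 (SE 0.19, adjusted p = 0.557). Among treated libraries with Xist alone, it was at 80.1 to 91.3 CPM in 3 WT and 29.8 CPM in the 1 WWP2-/- library, and among those with Y-linked transcripts alone at 53.6 CPM in the 1 WT and 39.8 to 49.0 CPM in 4 WWP2-/- libraries. Untreated, the 1 Y-only WT library (39.4 CPM) lay below the 3 Y-only WWP2-/- libraries (45.0 to 63.8 CPM), and over both treatments the Y-only medians were 46.5 CPM in 2 WT and 46.7 CPM in 7 WWP2-/- libraries. The call was lost with Xist as a covariate (log2 fold change −0.88, edgeR adjusted p = 0.0521) and without the 5 libraries with both kinds of transcript (−0.89, adjusted p = 0.114), where only 2 of all genes were called. Without the 2 libraries low in Acta2 it was −0.77 (edgeR adjusted p = 0.0131).

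Tead4 (ENSMUSG00000030353, chromosome 6, 128224288 to 128300823, minus strand), the TEAD factor best known from the trophoblast and from muscle, was the scarcest of the 10. It stood at 5.16, 5.89, 4.45, 6.303 and 5.66 CPM in TGFβ1-treated WT and 4.16, 2.98, 2.62, 2.57 and 3.46 CPM in TGFβ1-treated WWP2-/- replicates 1 to 5. The untreated values were 6.196, 5.19, 2.84, 3.12 and 6.17 CPM in WT and 5.04, 3.07, 3.704, 4.88 and 5.603 CPM in WWP2-/- libraries. Again no WWP2-/- library reached the lowest WT library with TGFβ1, and the untreated groups overlapped. The log2 fold change with TGFβ1 was −0.80 (SE 0.24, adjusted p = 0.0525) by edgeR, which missed the threshold, and −0.08 (SE 0.23, adjusted p = 0.897) untreated. It passed without the 2 libraries low in Acta2 (−0.92, edgeR adjusted p = 0.0227), without WWP2-/- replicate 1 alone (adjusted p = 0.0311) and without WT replicate 3 (0.0312). It did not pass with Xist as a covariate, at −0.60 (edgeR adjusted p = 0.154), or without the 5 libraries with both kinds of transcript, at −0.82 (adjusted p = 0.127).

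Tead1 (ENSMUSG00000055320, chromosome 7, 112679318 to 112906807, plus strand), a factor of heart and smooth muscle genes, was the TEAD transcript with the highest mean over the 20 libraries. It was at 238 to 430.1 CPM in WT and 158 to 388 CPM in WWP2-/- libraries with TGFβ1. The ranges overlapped, and the log2 fold change of −0.53 (SE 0.26, adjusted p = 0.214) did not pass, nor did it with Xist as a covariate, at −0.34 (edgeR adjusted p = 0.5297). Tead2 (ENSMUSG00000030796, chromosome 7, 45215753 to 45233644, plus strand), a factor of early embryonic and neural progenitor cells, varied least of the 10 genes. It ran from 69.0 to 103 CPM over the 20 libraries, and its SD within groups was at percentile 9.897 of the 13519 genes with a mean of at least 1 CPM. Its log2 fold change with TGFβ1 was 0.04 (SE 0.09, adjusted p = 0.853). By group mean, Tead1, Tead3 and Tead4 shared the order TGFβ1-treated WT, untreated WT, untreated WWP2-/-, TGFβ1-treated WWP2-/-, from high to low. Yap1 and Lats2 had the same order, so it was not particular to the TEAD factors. Neighbouring groups in this order overlapped for each of these genes.

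Yap1 (ENSMUSG00000053110, chromosome 9, 7931999 to 8004596, minus strand) encodes the coactivator YAP. In WT replicates 1 to 5 it was at 228, 213, 237, 191 and 244 CPM untreated and at 254, 272, 204, 242 and 279.7 CPM with TGFβ1. In WWP2-/- replicates it was at 213, 180.4, 208, 222 and 220.0 CPM untreated and at 206, 217, 223, 170.0 and 187 CPM with TGFβ1. Of the treated libraries, 4 of 5 WT lay above every WWP2-/- library, and WT replicate 3, the treated WT library with Y-linked transcripts alone, lay among the WWP2-/- libraries. The log2 fold change with TGFβ1 was −0.32 (SE 0.11, adjusted p = 0.0742) by edgeR, and it passed without that WT replicate (−0.40, adjusted p = 0.0228). For Yap1 the value was −0.21 (edgeR adjusted p = 0.255) with Xist as a covariate and −0.31 (adjusted p = 0.269) without the 5 libraries with both kinds of transcript. Untreated, it was −0.09 (SE 0.11, adjusted p = 0.696). Exons of Yap1 share 116 bases with the antisense gene Gm20416 and those of Tead2 share 13 with Cd37, and the strand setting of the counting was not given in the sources used here.

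Wwtr1 (ENSMUSG00000027803, chromosome 3, 57455649 to 57575910, minus strand), the gene of TAZ, had the highest mean in treated WWP2-/- cells, where Yap1 had its lowest. Its levels were 236, 216, 266, 304 and 234 CPM in untreated WT and 277, 221, 387, 185 and 238 CPM in TGFβ1-treated WT replicates 1 to 5. The WWP2-/- replicates held 331, 284, 161, 304 and 305 CPM untreated and 180.5, 468, 424, 305 and 290.4 CPM with TGFβ1. The 2 WWP2-/- libraries low in Acta2 were the lowest of all 20, and both treated groups covered a wide range that overlapped. The log2 fold change was 0.35 (SE 0.24, adjusted p = 0.393) with TGFβ1 and 0.14 (SE 0.24, adjusted p = 0.809) untreated, and with Xist as a covariate its sign turned in both comparisons (−0.05 and −0.16).

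Neither of the kinases that restrain YAP and TAZ passed the test between genotypes. Lats1 (ENSMUSG00000040021, chromosome 10, 7681214 to 7716460, plus strand) was at 63.05 to 116 CPM in WT and 75.2 to 146 CPM in WWP2-/- libraries with TGFβ1, and the log2 fold change was 0.13 (SE 0.19, adjusted p = 0.728). Untreated, it was at 67.4 to 87.1 and 75.8 to 123 CPM, with 0.37 (SE 0.19, adjusted p = 0.373), and 4 of 5 WWP2-/- libraries lay above every WT library. Lats2 (ENSMUSG00000021959, chromosome 14, 57689662 to 57758388, minus strand), which is both a kinase and a YAP/TAZ target, was at 159 to 200 CPM in WT and 97.4 to 171 CPM in WWP2-/- libraries with TGFβ1. Its log2 fold change was −0.44 (SE 0.19, adjusted p = 0.155), with ranges that overlapped through 1 WWP2-/- library, replicate 1, and with Xist as a covariate it was −0.21 (edgeR adjusted p = 0.492). Untreated, Lats2 was at −0.05 (SE 0.19, adjusted p = 0.925). Gm49361, which shares 2955 exon bases with Lats2 on the same strand, was not among the 51826 genes counted, so its level was not measured.

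Ankrd1 and Amotl2 are, with Lats2, the YAP/TAZ targets among the 10 genes, and neither passed between genotypes. With TGFβ1 their log2 fold changes had opposite signs, and untreated both were above 0. Ankrd1 (ENSMUSG00000024803, chromosome 19, 36111961 to 36120099, minus strand) encodes a muscle ankyrin repeat protein and is a common readout of YAP/TAZ activity. In WT replicates 1 to 5 it was at 270.2, 335, 91.01, 734 and 165 CPM untreated and at 308, 102, 617, 60.2 and 114 CPM with TGFβ1. The WWP2-/- libraries held 715, 515, 246, 682 and 518 CPM untreated and 288, 794, 1075, 535 and 545 CPM with TGFβ1. The WT groups each had 1 library far above the rest, untreated replicate 4 and TGFβ1 replicate 3, and these were the 2 WT libraries with Y-linked transcripts alone. Ankrd1 averaged 647 ± 298 CPM in treated WWP2-/- cells and 240.1 ± 231 CPM in treated WT cells (SD, n = 5 each), 2.69-fold more in the former. The log2 fold change of 1.43 (SE 0.60, adjusted p = 0.149) did not pass in edgeR, and it passed at 2.13 (adjusted p = 0.0241) without WT replicate 3. With Xist as a covariate it was 0.73 (edgeR adjusted p = 0.346). Untreated, it was 0.75 (SE 0.59, adjusted p = 0.569).

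Amotl2 (ENSMUSG00000032531, chromosome 9, 102716672 to 102733418, plus strand) encodes angiomotin-like 2, a junction and actin-bound protein that binds YAP. WT replicates 1 to 5 held 535, 479, 531, 463 and 556 CPM untreated and 714, 669, 639, 518 and 708 CPM with TGFβ1. WWP2-/- replicates held 544, 498, 252, 679 and 766 CPM untreated and 234, 519, 504, 472 and 497 CPM with TGFβ1. With TGFβ1, 4 of the 5 WWP2-/- libraries stood at 472 to 519 CPM and 1 at 234 CPM, and the highest of them overlapped the lowest WT library by less than 1 CPM. The log2 fold change was −0.55 (SE 0.24, adjusted p = 0.163) with TGFβ1 and 0.10 (SE 0.24, adjusted p = 0.871) untreated, and neither passed in edgeR. Without the 2 libraries low in Acta2 the value with TGFβ1 was −0.39 (edgeR adjusted p = 0.0564), and with Xist as a covariate it was −0.90 (edgeR adjusted p = 0.0534).

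The wider set of YAP/TAZ targets was read from a published signature of 22 genes, which includes Ankrd1, Amotl2 and Lats2. Its genes were not chosen on these libraries, but the signature was picked with earlier results of these data known. With TGFβ1, edgeR called 0 of the 22 higher and 3 lower in WWP2-/- cells, beside 6.07% of all genes called. DESeq2 called 4 (also F3), beside 13.1% of all genes. The 22 had a median log2 fold change of −0.16, with 8 values above and 14 below 0. In edgeR, 9 of them were at an unadjusted p below 0.05, beside 5035 of the 20407 genes tested. Igfbp3, which encodes a carrier protein of insulin-like growth factors, was at 3214, 5111, 15.1, 5967 and 4402 CPM in WT and 201, 14.3, 33.05, 39.4 and 29.5 CPM in WWP2-/- replicates 1 to 5. The WT library with Y-linked transcripts alone, replicate 3, lay at the WWP2-/- level, and the log2 fold change of −5.88 (SE 1.35, adjusted p = 0.0177) no longer passed with Xist as a covariate (−3.76, edgeR adjusted p = 0.234). Asap1, a regulator of Arf GTPases and focal adhesions, fell from 212 ± 39.9 to 90.4 ± 21.01 CPM (SD, n = 5 each) without overlap, a log2 fold change of −1.23 (SE 0.25, adjusted p = 0.0121). Rbms3, an RNA-binding protein of fibroblasts, fell from 179.9 ± 48.05 to 67.1 ± 30.4 CPM (SD, n = 5 each), with −1.42 (SE 0.37, adjusted p = 0.0319). Both lost the call with Xist as a covariate, at an edgeR adjusted p of 0.053 for Asap1 and 0.151 for Rbms3, and all 3 lost it without the 5 libraries with both kinds of transcript. Rbms3 also lost it in 7 of 10 fits with a single library taken out, at adjusted p-values up to 0.0829 (without WT replicate 2), and Igfbp3 in 1, without WWP2-/- replicate 4 (0.0503).

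CCN proteins, which sit in the matrix around cells, are classical YAP/TAZ targets. Ccn2 (connective tissue growth factor) was at 1888, 574, 4858, 763 and 681 CPM in TGFβ1-treated WT and 299, 3178, 4832, 2618 and 2199 CPM in TGFβ1-treated WWP2-/- replicates 1 to 5. WT replicate 3 was the highest and WWP2-/- replicate 1 the lowest of these 10 libraries, and the log2 fold change was 0.58 (SE 0.67, adjusted p = 0.637), and −0.68 with Xist as a covariate. Ccn1 (CYR61) was at 592 to 799 CPM in WT and 185 to 810.2 CPM in WWP2-/- libraries with TGFβ1, with −0.47 (SE 0.33, adjusted p = 0.394). For Ccn1 this was −0.99 with Xist as a covariate and −0.28 without WWP2-/- replicate 1, and Ccn2 ran from 0.23 without WWP2-/- replicate 3 to 1.41 without WT replicate 3. Untreated, the log2 fold changes were 0.83 for Ccn2 and 0.05 for Ccn1, and neither passed in edgeR.

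A list of 37 regulator genes of the pathway held upstream kinases, adaptors, membrane proteins, TEAD cofactors and ubiquitin ligases. Ptpn14 was in this list and also in the target signature. Of the 37 genes 35 were tested, and Vgll1 and Vgll2 were too low. With TGFβ1, edgeR called 2 higher and 2 lower in WWP2-/- cells, beside 6.07% of all genes called. DESeq2 called the same 4, beside 13.1% of all genes. The median log2 fold change over the 35 was −0.06. Stk4, the gene of the MST1 kinase that activates LATS, was at 52.5, 47.8, 53.5, 37.1 and 47.6 CPM in WT and 98.00, 68.99, 79.8, 68.2 and 68.4 CPM in WWP2-/- replicates 1 to 5. It rose by 0.69 (SE 0.17, adjusted p = 0.0251) on the log2 scale, without overlap. Nedd4l, a HECT ubiquitin ligase of the family to which WWP2 belongs, rose from 45.1 ± 10.6 to 107 ± 44.8 CPM (SD, n = 5 each), or 1.24 (SE 0.33, adjusted p = 0.0335) as a log2 fold change, with WWP2-/- replicate 3 at 39.6 CPM inside the WT range. Wtip, an Ajuba-family LIM protein that binds LATS, was lower, at −1.03 (SE 0.21, adjusted p = 0.0121), and so was Vgll4, a cofactor that competes with YAP for TEAD, at −0.48 (SE 0.11, adjusted p = 0.0206). Neither overlapped between genotypes, with 36.2 to 87.2 and 26.3 to 32.9 CPM for Wtip and 44.7 to 52.6 and 32.3 to 39.98 CPM for Vgll4 in WT and WWP2-/- libraries. With Xist as a covariate Stk4 kept its call (0.70, edgeR adjusted p = 0.0494), while Nedd4l, Wtip and Vgll4 lay at adjusted p-values of 0.0623, 0.0559 and 0.0563. All 4 lost the call without the 5 libraries with both kinds of transcript. With a single library taken out, Nedd4l lost it in 6 of 10 fits, Vgll4 in 4, Stk4 in 3 and Wtip in 0, with the highest adjusted p-values at 0.0809 for Nedd4l and 0.0647 for Vgll4 (without WT replicate 2) and 0.0625 for Stk4 (without WT replicate 4).

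Untreated, 0 of the 10 genes passed in edgeR, against 0.725% of all genes tested (148). At an unadjusted p of 0.05 by edgeR, 0 of the 10 passed, beside 3044 of the 20407 genes tested. The median log2 fold change of the 10 genes was −0.06, beside 0.08 over all genes tested. Their ranges overlapped between genotypes for every one of the 10, against 2.79% of all genes tested (570) without overlap. Of the 22 target genes 0 were called untreated by edgeR, with 4 at an unadjusted p below 0.05. DESeq2 called 3 of them (Asap1, Igfbp3 and Rbms3), beside 743 of the 20389 genes to which it gave an adjusted p. Of the 35 regulator genes tested both tools called 0, with 3 at an unadjusted p below 0.05 in edgeR. DESeq2's Wald test also called 0 of the 10 genes untreated. With TGFβ1 it called 3 (Yap1, Tead3 and Tead4), against 13.1% of all genes to which it gave an adjusted p.

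TGFβ1 itself was followed by no call in the edgeR fit in either genotype. In WT cells 0 genes passed of all tested (0.0%), with 1397 at an unadjusted p below 0.05 and 27 called by DESeq2. In WWP2-/- cells 0 passed (0.0%), with 713 at an unadjusted p below 0.05 and 49 called by DESeq2. Among the 10 genes, 8 log2 fold changes were above 0 in WT and 4 in WWP2-/- cells, with medians of 0.23 and −0.07. The largest in WT cells were those of Ankrd1 at −0.41 (SE 0.59, adjusted p = 0.955) and Tead3 at 0.39 (SE 0.19, adjusted p = 0.763), and in WWP2-/- cells that of Tead4 at −0.50 (SE 0.24, adjusted p = 0.9999). Of these, 1 passed an unadjusted p of 0.05, Tead4 in WWP2-/- cells (unadjusted p = 0.0489 by edgeR).

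The difference between the genotypes in their response to TGFβ1 was tested as an interaction, for which 0 of all genes passed (0.0%), with 1424 at an unadjusted p below 0.05 and 10 called by DESeq2. Tead3 and Tead4 had interaction values of −0.62 (SE 0.27, adjusted p = 0.659) and −0.72 (SE 0.33, adjusted p = 0.693), at unadjusted p-values of 0.0352 and 0.0438 by edgeR. For Amotl2 it was −0.64 (SE 0.33, adjusted p = 0.758) and for Ankrd1 0.68 (SE 0.83, adjusted p = 0.963). The call of Tead3 with TGFβ1 alone therefore does not show that its genotype difference depends on TGFβ1. The comparisons of genotype and of treatment share their libraries.

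The sex-linked transcripts parted the libraries for Ankrd1 and Wwtr1. Over both genotypes and treatments, Ankrd1 was at 60.2 to 288 CPM in the 6 libraries with Xist alone, 165 to 715 CPM in the 5 with both kinds of transcript, and 515 to 1075 CPM in the 9 with Y-linked transcripts alone. The first and last ranges did not overlap. Among the Xist-only libraries, Ankrd1 was at 60.2 to 114 CPM in 4 WT and 246 and 288 CPM in the 2 WWP2-/- libraries. Among the Y-only libraries, it was at 617 and 734 CPM in the 2 WT and 515 to 1075 CPM in 7 WWP2-/- libraries, which overlapped. Wwtr1 was at 161 to 266 CPM with Xist alone and 284 to 468 CPM with Y-linked transcripts alone, again without overlap. The other 8 genes overlapped between these kinds of library, and over all genes tested 12.5% did not overlap (2549). Ccn2 went the same way, at 299 to 1342 and 2172 to 4858 CPM. Since 4 of the 6 Xist-only libraries were WT and 7 of the 9 Y-only libraries were WWP2-/-, and tubular markers were higher in the latter, these values are a description without a test.

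**Figure D4:**
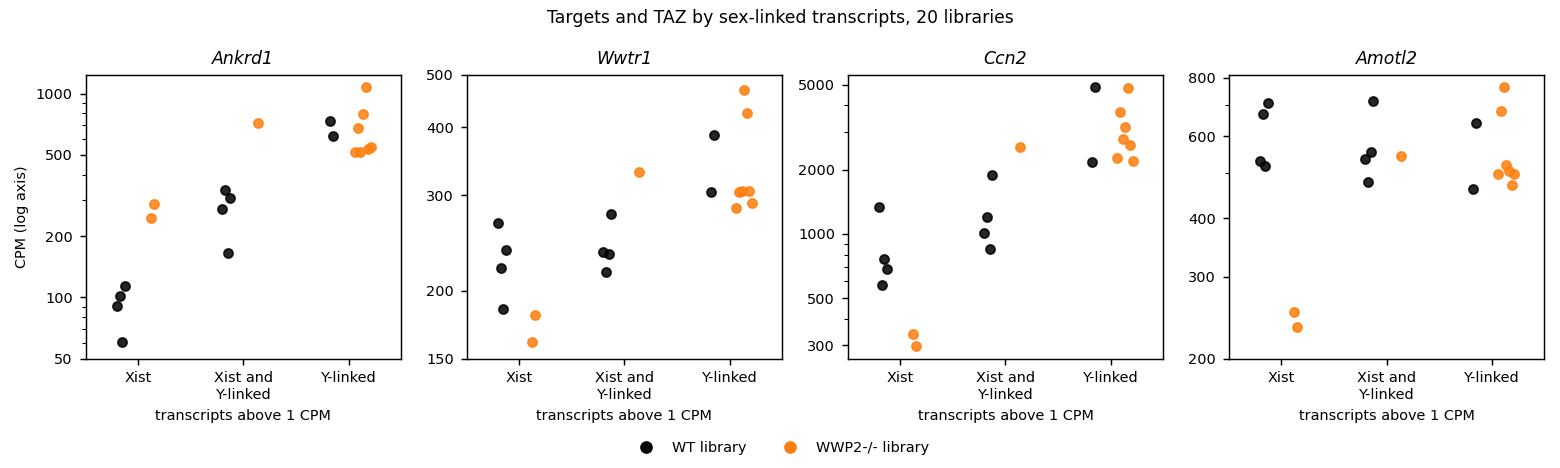
CPM (log axes) of Ankrd1, Wwtr1, Ccn2 and Amotl2 in the 20 libraries, by which sex-linked transcripts were above 1 CPM and by genotype. For Ankrd1, Wwtr1 and Ccn2 the Xist-only and Y-only libraries lie apart, and for Amotl2 the 2 WWP2-/- libraries with Xist alone, at 252 and 234 CPM, lie below all others.

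Amotl2 followed another line. In the 2 WWP2-/- libraries low in Acta2 it was at 252 and 234 CPM, against 463 to 766 CPM in the other 18. Tead3 (33.9 and 29.8 CPM, against 39.4 to 91.3) and Wwtr1 (161 and 180.5 CPM, against 185 to 468) were also below all other libraries there, so that this held for 3 of the 10 genes, against 13.6% of all genes tested (2780). Ccn1 (203 and 185 CPM, against 455 to 897) and Ccn2 (339 and 299 CPM, against 574 to 4858) did the same, whereas Yap1, Tead1, Tead2, Tead4, Lats2, Lats1 and Ankrd1 lay within the range of the other libraries. Lats1 was near the top of its range in both, at 123 and 126 CPM. The 2 libraries differ in treatment and share genotype and Xist alone.

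The 10 genes were also compared with each other over the 20 libraries, by Pearson's r of log2(CPM + 2), and again within the 6 Xist-only and the 9 Y-only libraries. These values describe libraries that share groups and cell make-up, and carry no p. Yap1 went with Tead1 (r = 0.90 over all, 0.95 in Xist-only and 0.93 in Y-only libraries) and with Tead3 (0.81, 0.93 and 0.74 in the same order). Tead3 and Amotl2 were at 0.77, 0.99 and 0.96. These pairs kept their sign within both kinds of library. The 6 Xist-only libraries were 4 WT and the 2 WWP2-/- libraries low in Acta2. Among them, Tead3 was at 73.3 to 91.3 CPM in WT and 29.8 to 33.9 CPM in WWP2-/- libraries, and Amotl2 at 518 to 708 and 234 to 252 CPM. The part of this split in the Xist-only r values was not tested. Ankrd1 and Wwtr1 had r = 0.72 over all libraries, −0.54 in Xist-only and 0.73 in Y-only ones. For Ankrd1 and Yap1 these were −0.64, −0.68 and 0.58, and for Yap1 and Wwtr1 −0.24, 0.67 and 0.56. The sign of these 3 pairs thus differed between the whole set and at least 1 kind of library.

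**Figure D5:**
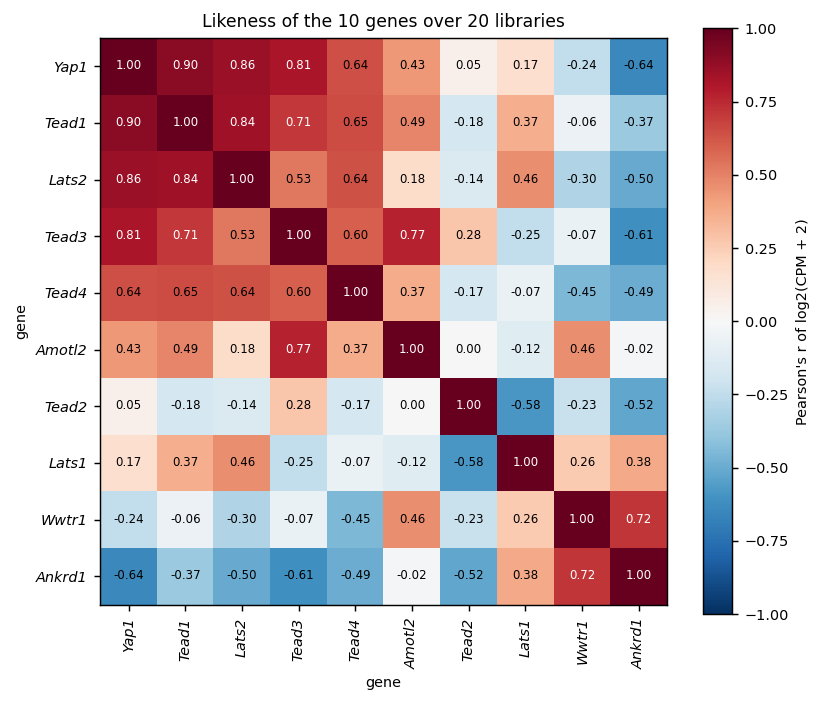
Pearson's r of log2(CPM + 2) over 20 libraries between each pair of the 10 genes (colour scale from −1 to 1, value in each cell). Yap1, Tead1, Lats2 and Tead3 form a block of positive values at the upper left, and Ankrd1 is negative with each of these and positive with Wwtr1 and Lats1.

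Outside the 10 genes, the most alike of 13509 others with a mean of at least 1 CPM were found for each. For Yap1 they were Mob1a (0.957) and Sipa1l1 (0.953), where Mob1a encodes an adaptor that activates LATS kinases. Wwtr1 was most like Prune2 (0.937) and St8sia2 (0.934), Tead1 like Vps13d (0.957) and Kif5b (0.956), and Tead2 like Nicn1 (0.846) and 2810408A11Rik (0.839). For Tead3 the nearest were Parva (0.954) and Mfap2 (0.947), which encode the focal adhesion protein α-parvin and a microfibril protein. Tead4 was nearest to Pcdh10 (0.853) and Resf1 (0.844), Lats1 to Fam208b (0.962) and Ltn1 (0.961), and Lats2 to Adcy3 (0.965) and Strn3 (0.964), of which Strn3 encodes a striatin of the phosphatase complex that acts on MST kinases. Ankrd1 was most like Dusp6 (0.969) and Fgd3 (0.969), and Dusp6 encodes a phosphatase induced by ERK signalling. Amotl2 was most like Itga1 (0.967) and Synpo (0.954), the genes of integrin α1 and of the actin-bound protein synaptopodin. The spread within groups, as the SD of log2(CPM + 2), was at percentile 94.5 of 13519 genes for Ankrd1, 15.5 for Yap1 and 9.897 for Tead2. The others lay between, at 75.1 for Tead1, 73.4 for Amotl2, 73.1 for Wwtr1 and 60.9 for Lats1. Tead3, Lats2 and Tead4 were at 60.7, 59.7 and 46.8.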

How the data were processed

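Poly-A RNA of 20 libraries was sequenced in paired-end mode. The authors aligned the reads to GRCm38 (mm10) with STAR and deposited raw counts per gene from featureCounts, without normalization. Genes were named from GENCODE M21 (51633 of 51826), which also gave exon lengths for RPKM. Groups and replicate numbers came from the sample titles, and no pair of libraries was identical. Genes were tested with edgeR 4.0.16 in R 4.3.3 (TMM, glmQLFit, glmQLFTest) on 20407 genes (5 or more counts in 5 or more libraries), which held 99.98% of counts, with 4 groups in 1 fit and Benjamini-Hochberg adjustment over all genes tested. DESeq2 1.42.0 was an alternative. The others were DESeq2's size factors, no filter, a minimum of 10 counts throughout, a block for the replicate number, the log2 level of Xist as a covariate (pseudocount 1 CPM), a fit of the compared groups alone, each library left out, CPM on total counts, and shares of counts without length. Leaving out the libraries low in Acta2 (below 100 CPM) and those with both kinds of sex-linked transcript was chosen after seeing the data. The latter took out 3 untreated WT, 1 untreated WWP2-/- and 1 TGFβ1-treated WT library. How far calls lost in that fit come from the smaller groups was not tested. The 10 genes, the lists and the tests were chosen with earlier results of these data known. Named besides the 10 genes and Wwp2 were Ccn1, Ccn2, the called genes of the target and regulator lists with the largest change (up to 5 per list and comparison, or 3 for the TGFβ1 response and contractile lists, at a mean of at least 1 CPM), and the 2 most alike genes of each. Y-linked transcripts were Ddx3y, Eif2s3y, Kdm5d and Uty. The fit was tested on simulated data. Other measurements of the study were not analysed here. The values of 1 called gene of the TGFβ1 response list are not reported here.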

Additional observations from a re-analysis of the deposited data

Results flagged for a closer look

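Within the groups of 5 libraries, 4 of the 40 combinations of gene and group held a library whose gap to its neighbour, over the range of the group, was above Dixon's critical value of 0.71, where chance gives about 1 in 20. Wwtr1 in untreated WWP2-/- cells was at 160.8 CPM in replicate 3, against 283.6 to 331.1 CPM in the others. Amotl2 in TGFβ1-treated WWP2-/- cells was at 234.4 CPM in replicate 1, against 471.8 to 519.1 CPM. Both are the libraries low in Acta2. Tead2 in untreated WT cells was at 103.4 CPM in replicate 3, against 77.9 to 82.0 CPM. Lats2 in untreated WWP2-/- cells was at 95.3 CPM in replicate 2, against 152.6 to 174.5 CPM. No gene of the 10 passed the test of a different response to TGFβ1 between genotypes.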

How the results depend on the processing

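Between genotypes with TGFβ1, 1238 genes and 1 of the 10 (Tead3) were called. The count over all genes was 790 without a filter, 660 with Xist as a covariate, 534 when only the groups compared were fitted, 3480 without the libraries low in Acta2, 2 without those with both kinds of sex-linked transcript and 2672 by DESeq2. Of the 10 genes, 0 were called with Xist as a covariate and 0 without the libraries with both kinds, 2 with at least 10 counts in every library and 2 without those low in Acta2 (Tead3 and Tead4 in both), and 3 by DESeq2. Leaving out 1 library at a time gave 453 (without WT replicate 2) to 2730 genes (without WT replicate 3) and 1 to 4 of the 10, and the cause was not tested. Tead3 was called in each of these 10 fits, at adjusted p-values from 0.00505 to 0.0491 by edgeR, and the 4 without WT replicate 3 were Yap1, Tead3, Tead4 and Ankrd1. Untreated, 148 genes were called, 87 with Xist as a covariate, 1 with the compared groups alone, 271 without the libraries low in Acta2, 1 without those with both kinds, 743 by DESeq2, and 1 to 743 with 1 library left out (most without WT replicate 4). For TGFβ1 in WT cells, Xist as a covariate gave 1 gene and DESeq2 27. In WWP2-/- cells DESeq2 gave 49 and leaving out 1 library 0 to 63 (most without untreated replicate 3), and for the interaction DESeq2 gave 10.

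With the replicate block, 670 genes and 2 of the 10 (Tead3 and Tead4) were called between genotypes with TGFβ1, and 1 gene untreated. Across all pairs of groups, r of the deviations of same-numbered libraries ran from −0.59 to 0.53. Between the untreated genotypes replicates 1, 2, 3 and 5 were at 0.27, 0.32, 0.45 and 0.22, each its number's best match, and replicate 4 at −0.01, while between the treated genotypes they ran from −0.50 to 0.16. Not every pair went together, and the labels give the numbers no meaning, so they were not used as pairs.

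Signs turned only in values that did not pass. With Xist as a covariate these were, with TGFβ1, Wwtr1 (−0.055) and Ccn2 (−0.68), untreated Wwtr1 (−0.16), Tead1 (0.0099), Tead4 (0.10), Amotl2 (−0.19), Lats2 (0.14), Ccn1 (−0.38) and Ccn2 (−0.30), and for TGFβ1 in WWP2-/- cells Ankrd1 (−0.046). Without the libraries with both kinds, of which 3 were untreated WT, they were untreated Wwtr1 (−0.11), Tead1 (0.26), Tead4 (0.53) and Lats2 (0.098). In the same fit they were Tead2 with TGFβ1 (−0.0029) and Wwtr1 for TGFβ1 in WT cells (−0.14). With 1 library left out, the genotype values ranged untreated from −0.31 to 0.015 for Tead1, −0.24 to 0.042 for Tead4, −0.086 to 0.26 for Amotl2, −0.19 to 0.039 for Lats2 and −0.17 to 0.24 for Ccn1, and with TGFβ1 from −0.014 to 0.098 for Tead2 and −0.022 to 0.22 for Lats1. The values for TGFβ1 ranged in WT cells from −0.12 to 0.15 for Wwtr1, −0.13 to 0.013 for Tead2 and −1.12 to 0.15 for Ankrd1, and in WWP2-/- cells from −0.088 to 0.012 for Yap1, −0.30 to 0.087 for Tead1 and −0.069 to 0.18 for Lats1.

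DESeq2's size factors changed no call of the 10 genes, and CPM on total counts moved no level by more than the spread between replicates. Shares without length moved 24 family shares by more than that, and the Tead3 shares of the genotypes with TGFβ1 then overlapped. Without the libraries with both kinds, Wwp2 kept its call in both genotype comparisons, while Igfbp3, Rbms3, Asap1, Nedd4l, Stk4, Wtip, Vgll4, Col1a2, Postn and Col1a1 lost it. Rbms3, Nedd4l, Stk4, Postn and Col1a1 lost it with the block. Tead4, at 2.57 to 6.30 CPM, rests on the fewest counts of the 10 genes.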

Other observations

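Genes that answer to TGFβ1 or to SRF are often read together with YAP/TAZ targets. Untreated, edgeR called 0 of 16 genes of a TGFβ1 response list, with 7 at an unadjusted p below 0.05, beside 3044 of 20407 genes. DESeq2 called 2 untreated (Col1a2 and Postn), beside 743 of 20389 genes. Medians of the 16 were 0.13 with TGFβ1 and −0.17 untreated. With TGFβ1, edgeR called 2 of them higher and 3 lower in WWP2-/- than in WT cells, beside 6.07% of all genes. The lower ones were matrix genes, namely Col1a2 at −2.63 (SE 0.57, adjusted p = 0.0142), Postn at −2.44 (SE 0.68, adjusted p = 0.0407) and Col1a1 at −1.98 (SE 0.58, adjusted p = 0.0492) by edgeR. Among the higher ones was the transcriptional repressor Bhlhe40 at 1.10 (SE 0.27, adjusted p = 0.0243) by edgeR, named after its values were seen. With Xist as a covariate the matrix genes no longer passed, at adjusted p-values of 0.08004, 0.296 and 0.1698 by edgeR.

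Of 14 contractile genes, 3 were at an unadjusted p below 0.05 in edgeR between genotypes with TGFβ1, beside 5035 of 20407 genes. EdgeR and DESeq2 each called 0 of the 14 in any of the 5 comparisons. Their median log2 fold change between genotypes was −0.23 with TGFβ1 and 0.55 untreated, where 13 of 14 values were above 0. After TGFβ1, 13 of 14 were above 0 in WT cells (median 0.52) and 4 of 14 in WWP2-/- cells (median −0.29).

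Among the matrix genes, Col1a2 passed in 10 of 10 fits with a single library taken out, and Postn and Col1a1 in 2 each, with adjusted p-values up to 0.101 and 0.111 without WT replicate 2.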
